A study of Mus musculus with 16 samples.

Results

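The mammary lineage transcription factors described here are 9 genes, Trp63, Sox10, Sox9, Elf5, Ehf, Gata3, Esr1, Foxa1 and Pgr, picked by name from the 27179 genes of a count table. They were followed in 15 mouse mammary tumors that fall into 5 groups of 3. All 9 were found in the table and all 9 passed the filter on low counts, which left 16017 genes for testing.

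The mammary epithelium has an outer basal layer, which contracts and contacts the stroma, and an inner luminal layer with hormone-sensing cells and with alveolar cells that make milk. p63, encoded by Trp63, keeps basal cells basal. The SoxE factors Sox9 and Sox10 are found in mammary stem and progenitor cells and in basal cells, and Sox10 also directs the neural crest and Schwann cells. Elf5 and Ehf are factors of the ETS family, and Elf5 drives the alveolar fate. Gata3 maintains luminal cells, Foxa1 opens chromatin for steroid receptors, and Esr1 and Pgr encode the estrogen and progesterone receptors of hormone-sensing cells.

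All tumors, the Sham tumors included, were Trp53 null mammary carcinomas. They grew from second-generation (F2) tumor-derived transplants of 1 tumor family, family F, placed orthotopically into female BALB/cJ mice aged 8 to 10 weeks, so they all come from 1 family and the hosts supply the stroma and the immune cells. Treatment began at a tumor volume of 65 to 100 mm3 and the tumors were collected at day 7. The TGFbi+RT+anti-PD-L1 group had the TGF-beta small molecule inhibitor IPW-5371 (TGFbi, 20 mg/kg daily), a single focal 10 Gy dose of radiation (RT) and anti-PD-L1, an antibody against a ligand that restrains T cells (10 mg/kg weekly). The TGFbi+RT group had the inhibitor and radiation. The RT and TGFbi groups had 1 of these each, and the Sham group is the labelled control, for which the labels name control immunoglobulin G (IgG, 25 mg/kg, 3 times per week). Agents were given 24 h before irradiation, and whether the treated groups also had IgG is not stated for each group. The labels number the tumors of a group but do not say that each came from its own mouse, so the p-values measure the spread between these tumors.

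Total counts were 11002869 to 17184023 per tumor (median 13302488). Levels are in CPM, the usual depth-scaled count, after TMM scaling of the libraries. Pan-epithelial markers were present in every tumor, with none of 13 at 0 counts, and the cell adhesion gene Epcam ranged over 110 to 203 CPM. All 24 basal and myoepithelial genes were detected in every tumor, with the basal keratin Krt5 at 347 to 1117 CPM and the luminal keratin Krt8 at 0.33 to 33.9 CPM. Trp53 itself had 63.9 to 110 CPM in these Trp53 null tumors, and since the part of the gene that is deleted is not given in the sources used here, this checks nothing. Along the first principal component, which held 46.8% of the variance, TGFbi+RT replicate 3 and TGFbi+RT+anti-PD-L1 replicate 2 lay apart from the rest, at -102 and -114 against -33.1 to 88.5, so the results below that rest on them are also given without them. The labels' library code was A2304 for all RT tumors and for 2 of the TGFbi+RT+anti-PD-L1 tumors and A2301 for the rest, so the code and the RT treatment cannot be told apart by the RT and Sham tumors alone.

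Promoter sequences are shown for Elf5, Foxa1 and Pgr because these genes, with Ehf, carry the 2 patterns of shared variation described below. Each is the 250 bases before a start of the gene in the RefSeq table of build GRCm38.p6, written 5′ to 3′ along the gene's strand with motif matches in capitals. That table matched 5 of the 9 genes (Elf5, Gata3, Foxa1, Esr1 and Pgr), with 2 starts each for Elf5 and Esr1. The Elf5 window shown is that of the first start, and the window of its second start (chr2:103423818-103424067, plus strand) held 0 matches. The capitals mark a SOX match and a TEAD match in Elf5 (chr2:103411848-103412097, plus strand), a FOX match in Foxa1 (chr12:57546112-57546361, minus strand) and an ETS match in Pgr (chr9:8899583-8899832, plus strand).
Elf5: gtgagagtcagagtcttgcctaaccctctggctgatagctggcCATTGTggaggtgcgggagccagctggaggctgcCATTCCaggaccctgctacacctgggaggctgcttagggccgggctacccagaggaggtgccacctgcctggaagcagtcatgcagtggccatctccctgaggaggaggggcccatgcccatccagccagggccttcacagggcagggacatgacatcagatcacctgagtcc
Foxa1: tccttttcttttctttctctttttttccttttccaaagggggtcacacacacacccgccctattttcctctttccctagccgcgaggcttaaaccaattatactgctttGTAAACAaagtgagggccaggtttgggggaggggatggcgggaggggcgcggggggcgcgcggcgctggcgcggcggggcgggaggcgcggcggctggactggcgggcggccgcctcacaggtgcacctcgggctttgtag
Pgr: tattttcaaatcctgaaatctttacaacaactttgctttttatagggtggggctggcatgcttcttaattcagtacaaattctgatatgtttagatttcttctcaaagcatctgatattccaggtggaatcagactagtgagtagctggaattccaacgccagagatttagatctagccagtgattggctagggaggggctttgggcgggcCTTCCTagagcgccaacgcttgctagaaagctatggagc
The motifs searched, on both strands, were AGATAA for GATA factors, ACAATG for SOX, AGGAAG for ETS, TGTTTAC for FOX, TGANTCA for AP1 and GGAATG for TEAD factors, and the palindromic estrogen response element. Of 32851 promoter windows of the same length, 10.7% hold the SOX letters, 12.6% the TEAD letters, 3.17% the FOX letters and 29.5% the ETS letters. The GATA letters are in 9.99% and the AP1 letters in 6.75%. Of these, matches are most common for ETS and least common for FOX, and they describe the letters alone. No estrogen response element was found in the 5 genes' windows, and 0.0639% of all windows hold one.

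Per length of transcript, Sox10 and Trp63 stood far above the other 7 factors. On the FPKM scale (CPM per kilobase of summed exon), the mean level over the 15 tumors was 113 ± 22.7 for Sox10 and 101 ± 30.5 for Trp63 (SD, n = 15), above 97.4% and 97.1% of the genes tested. Sox9 at 11.6 ± 4.27, Elf5 at 11.6 ± 6.15 and Ehf at 10.1 ± 5.94 FPKM (SD, n = 15) formed a middle level, followed by Gata3 at 5.59 ± 2.56 and Esr1 at 3.16 ± 1.18 FPKM (SD, n = 15). Foxa1 averaged 0.921 ± 1.57 and Pgr 0.495 ± 0.564 FPKM (SD, n = 15), above 15.3% and 8.57% of the genes tested. Between neighbours in this order, Trp63 was above Sox9 in 15 of 15 tumors, and Esr1 was above Foxa1 in 14. Elf5 was above Ehf, Ehf above Gata3 and Gata3 above Esr1 in 12 tumors each. Sox10 was above Trp63 in 10 tumors, Sox9 above Elf5 in 7 and Foxa1 above Pgr in 7, and these 3 pairs of neighbours did not separate beyond their spread.

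**Figure D1:**
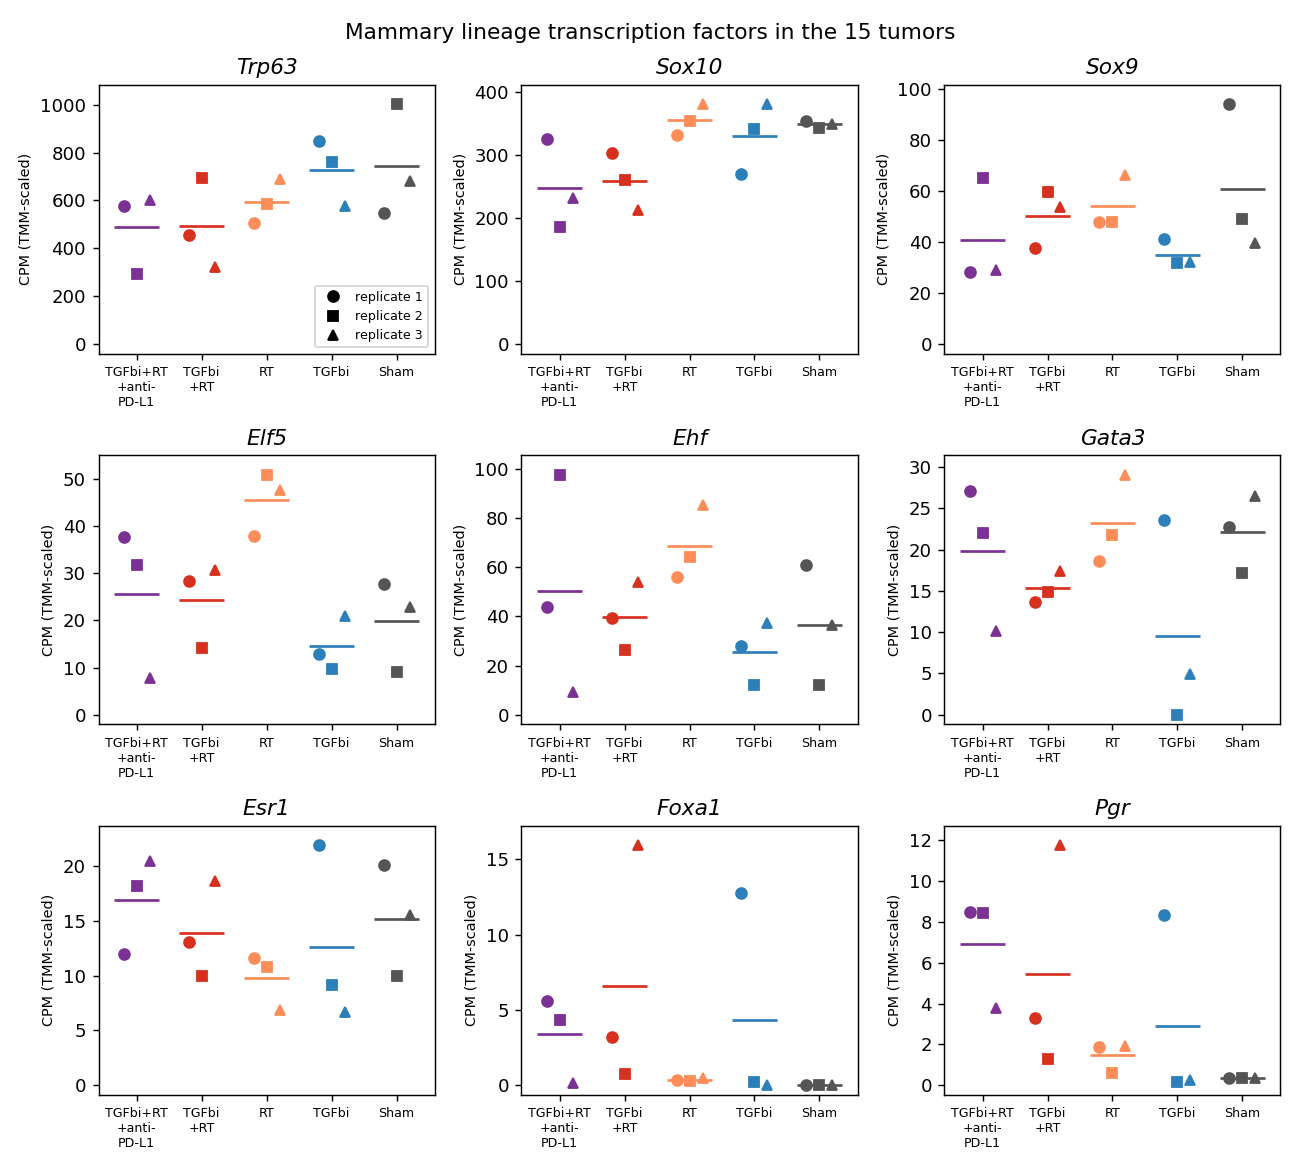
Level of each of the 9 transcription factors in CPM (y axis, linear, scaled by TMM) in the 15 tumors, by treatment group (x axis), with 1 point per tumor, the marker shape for the replicate number and a bar for the mean of the 3 tumors. Sox10 stays between 186 and 380 CPM, Elf5 is high in the 3 RT tumors, Gata3 is at 0 in TGFbi replicate 2, and Foxa1 and Pgr are near 0 in all Sham tumors.

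No member changed between groups at an adjusted p under 0.05 in edgeR's quasi-likelihood test with Benjamini-Hochberg adjustment over the 16017 genes, in any of 8 contrasts or in the test for any difference among the 5 groups. The test itself made almost no calls: 0.00624% of genes (1 gene) in TGFbi vs Sham and 0% in each other contrast. At an unadjusted p under 0.05, 3 of 9 members passed in TGFbi+RT+anti-PD-L1 vs Sham, where 14.9% of all genes did, and 3 passed in TGFbi+RT vs Sham, where 15% of all genes did. The counts were 1 member in RT vs Sham (background 4.2%), 3 in TGFbi vs Sham (8.48%), 2 in TGFbi+RT vs RT (9.62%), and 0 in TGFbi+RT vs TGFbi (6.06%), in TGFbi+RT+anti-PD-L1 vs TGFbi+RT (1.99%) and in the interaction of TGFbi with RT (3.8%). In the test of any difference, Foxa1 and Pgr were below an unadjusted p of 0.05 in edgeR, where 10.8% of all genes were, with an adjusted p = 0.439 and an adjusted p = 0.434. The median log2 fold change of the 9 members was 0.15 in TGFbi+RT+anti-PD-L1 vs Sham, -0.14 in TGFbi+RT vs Sham, 0.06 in RT vs Sham and -0.28 in TGFbi vs Sham, while the median of all genes stayed between -0.01 and 0.01 in these contrasts. The 4 contrasts with Sham share the same 3 Sham tumors.

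The 3 tumors of a group lay wholly above or below those of the other group for 3 members in TGFbi+RT+anti-PD-L1 vs Sham and for 3 in TGFbi+RT vs Sham (Foxa1 and Pgr higher and Sox10 lower in both), where 16.6% and 18.3% of all genes did so. In RT vs Sham, Elf5, Foxa1 and Pgr were separated, all higher, where 12% of all genes were. Foxa1 had 0 counts in the Sham tumors, 2 in TGFbi+RT+anti-PD-L1 replicate 3 and 4 to 7 in the RT tumors, so its separation there is near the limit of counting. In TGFbi+RT vs RT, Elf5, Ehf, Gata3 and Sox10 lay lower and Foxa1 higher, where 16% of all genes were separated in either direction. The groups of RT vs Sham and of TGFbi+RT vs RT also differ wholly in library code. TGFbi+RT+anti-PD-L1 differs in part from Sham and from TGFbi+RT, since its replicates 2 and 3 have code A2304 and all others in these contrasts have A2301. No member was separated in TGFbi vs Sham (15.3% of all genes), in TGFbi+RT vs TGFbi (11.4%) or in TGFbi+RT+anti-PD-L1 vs TGFbi+RT (4.99%).

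**Figure D2:**
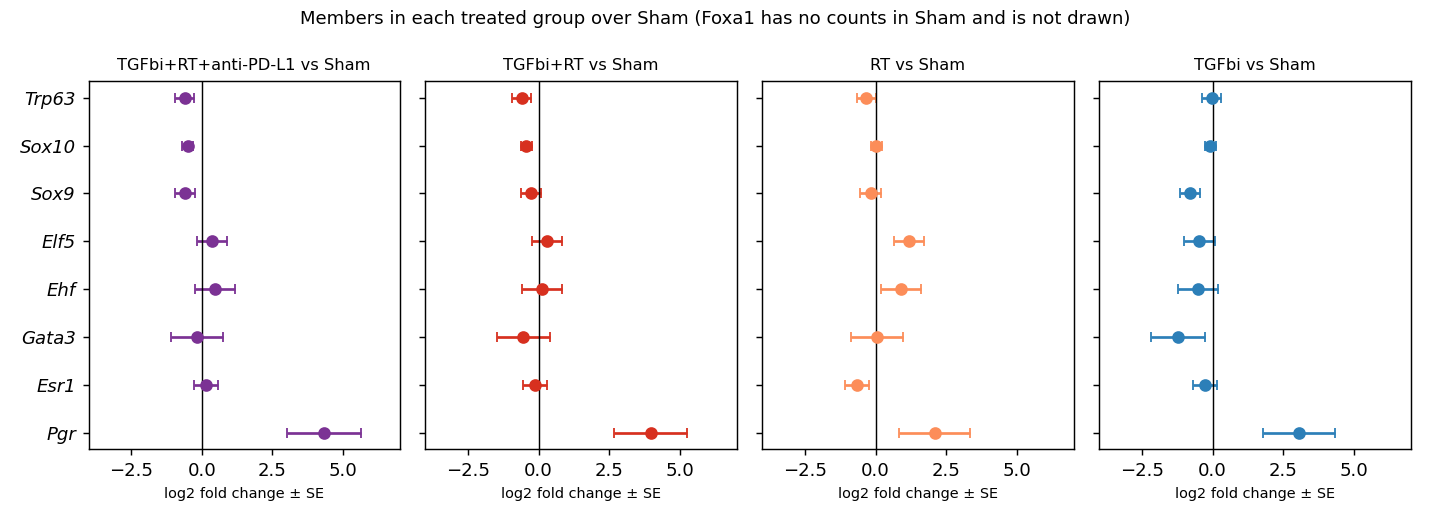
Log2 fold change ± SE (x axis) from edgeR's quasi-likelihood fit for 8 members (rows) in each treated group over Sham (panels), with 3 tumors per group. Pgr lies furthest from 0 in the TGFbi+RT+anti-PD-L1 panel (4.32 ± 1.30), Elf5 leads in the RT panel apart from Pgr (1.19 ± 0.53), and Foxa1 is left out because it has no counts in the Sham tumors.

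Among the basal and SoxE factors, Trp63, the master regulator of basal epithelium, was high in every tumor and varied by 3.44 times. It had 576, 292 and 603 CPM in the TGFbi+RT+anti-PD-L1 tumors, 457, 696 and 323 in the TGFbi+RT tumors, 505, 585 and 689 in the RT tumors, 847, 763 and 576 in the TGFbi tumors and 550, 1003 and 682 in the Sham tumors. The groups overlapped, and the adjusted p of any difference was 0.665 (edgeR). The 2 lowest tumors, TGFbi+RT+anti-PD-L1 replicate 2 and TGFbi+RT replicate 3, are those that stand apart on the first principal component. The genes most like Trp63 over the 15 tumors were Gpsm2 (r = 0.948), Ewsr1 (0.937) and Xpo7 (0.937).

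Levels of Trp63 ran against the markers of host cells, and also against alveolar genes, from tumor to tumor. All 16 tested leukocyte markers had a Pearson r below -0.5 with Trp63 over the 15 tumors, where 25.3% of all tested genes did. So did 10 of 10 fibroblast and 6 of 8 endothelial markers, and 10 of 13 tested alveolar and luminal progenitor genes. The summed leukocyte markers reached 6638 CPM in TGFbi+RT+anti-PD-L1 replicate 2, where Trp63 was 292 CPM, and 3620 CPM in TGFbi+RT replicate 3, where Trp63 was 323 CPM, against 206 CPM in Sham replicate 2, where Trp63 was 1003 CPM. Without the 2 tumors that stand apart, 13 of 16 leukocyte, 9 of 10 fibroblast and 4 of 8 endothelial markers had r below -0.5. So did 7 of 13 alveolar and luminal progenitor genes, where 14.4% of all genes did. In bulk tumors, fewer cells of a type and less RNA per cell cannot be told apart, and all values of a tumor share its library and its scaling. The part of the host markers in the level of any member was not tested.

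Sox10, a SoxE factor of neural crest and mammary progenitor cells, was the steadiest of the 9 members. It had 325, 186 and 232 CPM in the TGFbi+RT+anti-PD-L1 tumors, 303, 260 and 212 in the TGFbi+RT tumors, 331, 353 and 380 in the RT tumors, 269, 340 and 380 in the TGFbi tumors and 354, 342 and 348 in the Sham tumors. The highest tumor had 2.05 times the lowest, and the TGFbi+RT+anti-PD-L1 and TGFbi+RT tumors all lay below the 3 Sham tumors. Its 3 TGFbi+RT tumors also lay below the 3 RT tumors. The log2 fold change was -0.49 ± 0.20 (SE) in TGFbi+RT+anti-PD-L1 vs Sham (edgeR adjusted p = 0.279), -0.43 ± 0.20 in TGFbi+RT vs Sham (edgeR adjusted p = 0.331) and -0.46 ± 0.20 in TGFbi+RT vs RT (edgeR adjusted p = 0.494), each below 0.05 before adjustment. Without the 2 tumors that stand apart these values were -0.34, -0.32 and -0.33. In TGFbi+RT vs TGFbi, where no member was below 0.05 before adjustment, Sox10 had the smallest p of the 9, with a log2 fold change of -0.35 ± 0.20 (edgeR adjusted p = 0.789). Markers of leukocytes ran against Sox10: 15 of 16 had r below -0.5 with it over the 15 tumors, where 21.0% of all genes did. Over the 13 tumors without the 2 that stand apart, 2 of 16 did, where 7.04% of all genes did. Of the adipocyte markers, 7 of 8 had r below -0.5 with Sox10 over the 15 tumors and 6 of 8 over the 13, and of the fibroblast markers 6 of 10 and 3 of 10 did. With the library code as a term the difference in TGFbi+RT+anti-PD-L1 vs Sham was -0.10, and in TGFbi+RT vs RT it was -1.10 (edgeR adjusted p = 1.00 and adjusted p = 0.426). Only the TGFbi+RT+anti-PD-L1 group held both codes. The code term thus rests on its replicate 1 (325 CPM) against its replicates 2 and 3 (186 and 232 CPM), and cannot separate code from treatment elsewhere. Of the Schwann and nerve markers, 7 of 8 passed the filter on low counts, and the summed level of the list spanned 117 to 194 CPM for TGFbi+RT+anti-PD-L1, 100.0 to 110 CPM for TGFbi+RT, 83.1 to 160 CPM for RT, 125 to 174 CPM for TGFbi and 104 to 174 CPM for Sham. The genes most like Sox10 were Scrn2 (r = 0.933), Tfap2c (0.932), an AP-2 transcription factor, and Fgd1 (0.909).

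Sox9, the SoxE factor of cartilage, hair follicle and mammary progenitors, had 28.4, 65.0 and 28.9 CPM in the TGFbi+RT+anti-PD-L1 tumors, 37.8, 59.6 and 53.6 in the TGFbi+RT tumors, 47.9, 47.8 and 66.3 in the RT tumors, 41.3, 31.7 and 32.1 in the TGFbi tumors and 94.1, 49.0 and 39.7 in the Sham tumors. Groups overlapped in every contrast, and Sham replicate 1 was the highest tumor. Its smallest p was in TGFbi vs Sham, with a log2 fold change of -0.80 ± 0.36 (edgeR adjusted p = 0.583), which was -0.34 without Sham replicate 1. The interaction of TGFbi with RT was 0.70 ± 0.51 (edgeR adjusted p = 1.00), and the difference in TGFbi+RT+anti-PD-L1 vs TGFbi+RT was -0.30 ± 0.36 (edgeR adjusted p = 1.00). The genes most like Sox9 were Cnksr1 (r = 0.890), Svil (0.839) and Epb41l4b (0.830). The SoxE gene outside the 9, Sox8, was also expressed, with a mean of 18.4 FPKM and a range of 4.15 to 54.7 FPKM over the 15 tumors.

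Genes that go with these factors were counted too. Of 24 basal and myoepithelial genes, all tested, 0 were called in any contrast, and 8 in TGFbi+RT+anti-PD-L1 vs Sham (14.9% of all genes), 6 in TGFbi+RT vs Sham (15%), 4 in RT vs Sham (4.2%) and 4 in TGFbi vs Sham (8.48%) had an unadjusted p under 0.05. Krt5, which binds basal cells into a keratin network, averaged 387 ± 45.4 CPM in TGFbi+RT+anti-PD-L1 tumors, 541 ± 201 in TGFbi+RT tumors, 382 ± 33.8 in RT tumors, 902 ± 261 in TGFbi tumors and 661 ± 58.9 in Sham tumors (SD, n = 3 each; edgeR adjusted p of any difference 0.287). Igfbp2, an insulin-like growth factor binding protein, averaged 82.1 ± 17.9 CPM in TGFbi+RT+anti-PD-L1 tumors, 110 ± 76.4 in TGFbi+RT tumors, 68.4 ± 21.4 in RT tumors, 74.9 ± 24.0 in TGFbi tumors and 288 ± 53.5 in Sham tumors (SD, n = 3 each; edgeR adjusted p of any difference 0.299). Of 23 SoxE-associated genes, 17 were tested and 0 were called. The smallest p among them was that of Tubb3, a neuronal tubulin, which averaged 2.72 ± 0.991 CPM in TGFbi+RT+anti-PD-L1 tumors, 4.02 ± 1.53 in TGFbi+RT tumors, 5.18 ± 2.05 in RT tumors, 14.5 ± 7.98 in TGFbi tumors and 2.87 ± 0.736 in Sham tumors (SD, n = 3 each; edgeR adjusted p of any difference 0.287).

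Turning to the ETS factors, Elf5 and Ehf varied together from tumor to tumor. Elf5, the driver of alveolar fate, had 37.6, 31.8 and 7.68 CPM in the TGFbi+RT+anti-PD-L1 tumors, 28.4, 14.2 and 30.6 in the TGFbi+RT tumors, 37.9, 51.0 and 47.7 in the RT tumors, 12.8, 9.73 and 20.8 in the TGFbi tumors and 27.8, 9.09 and 22.8 in the Sham tumors. The 3 RT tumors all lay above the 3 Sham tumors and above the 3 TGFbi+RT tumors. The log2 fold change in RT vs Sham was 1.19 ± 0.53 (SE; edgeR adjusted p = 0.999), below 0.05 before adjustment, and with the library code as a term it was 2.12 (adjusted p = 0.897). That term rests on the TGFbi+RT+anti-PD-L1 group alone, the only group with both codes. There it sets replicate 1 (37.6 CPM) against replicates 2 and 3 (31.8 and 7.68 CPM). Ehf, an ETS factor of many epithelia, had 43.7, 97.8 and 9.12 CPM in the TGFbi+RT+anti-PD-L1 tumors, 39.4, 26.4 and 54.2 in the TGFbi+RT tumors, 55.9, 64.3 and 85.3 in the RT tumors, 28.0, 11.9 and 37.2 in the TGFbi tumors and 61.0, 12.0 and 36.4 in the Sham tumors. The same 3 tumors were lowest for both genes: TGFbi+RT+anti-PD-L1 replicate 3, TGFbi replicate 2 and Sham replicate 2.

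Over the 15 tumors the log2 CPM of Elf5 and Ehf had a Pearson r of 0.926 and a Spearman rho of 0.900. The permutation p was 1e-05 for r, the smallest that 100000 permutations can give, and 4e-05 for rho, with 0.00036 and 0.00144 after Benjamini-Hochberg adjustment over the 36 pairs of members. The value was 0.870 without the 2 tumors farthest from the median of Elf5, 0.948 without the 2 tumors that stand apart, 0.915 for deviations from the group means and 0.914 within the 10 tumors of code A2301, while the 5 tumors of code A2304 are too few for a value. The genes lie on the same chromosome in the deposited GRCm38 annotation, Ehf at chr2:103263433-103303196 on the minus strand and Elf5 at chr2:103412098-103450989 on the plus strand, 108902 bases apart with 1 listed gene between them. Among tested genes within 1 Mb of Elf5, Apip, at 319449 bases, had r = 0.77 with it, Cat, at 2915 bases, had 0.62 and Abtb2, at 115321 bases, had 0.21, so nearby genes differed in how far they followed it. By the rule of the 3 most alike among 12912 genes, Elf5 was followed by Atp6v1b1 (r = 0.939), a subunit of the vacuolar proton pump, Shank2 (0.927), a scaffold protein, and Ehf. Ehf was followed by Atp10b (0.972), Slco1a5 (0.957) and Tfcp2l1 (0.953), which are a lipid flippase, an organic anion transporter and a transcription factor.

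**Figure D3:**
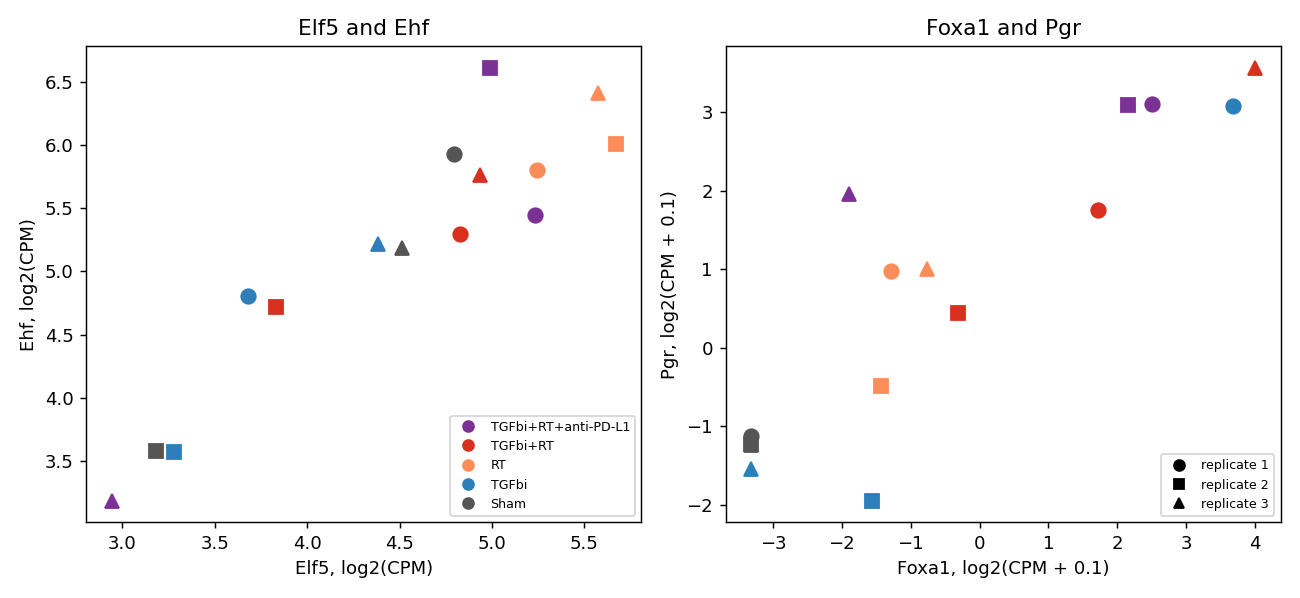
Level of Ehf against Elf5 in log2(CPM) (left panel) and of Pgr against Foxa1 in log2(CPM + 0.1) (right panel), with 1 point per tumor (n = 15), colored by treatment group and shaped by replicate number. In the left panel 3 tumors from 3 groups lie at the lower left and the RT tumors at the upper right, and in the right panel the Sham tumors lie at the lower left.

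Alveolar and pan-epithelial genes followed this pair, and hormone-sensing luminal genes mostly did not. Of 13 tested alveolar and luminal progenitor genes, 8 had r above 0.5 with Elf5 and 8 with Ehf, where 5.31% and 7.59% of all tested genes did. Of 13 pan-epithelial markers, 8 and 8 did. Of 19 tested hormone-sensing luminal genes, 2 did with Elf5 and 4 with Ehf, and 2 and 1 did over the 13 tumors without the 2 that stand apart. Among the alveolar and pan-epithelial genes, Wfdc18, of the whey acidic protein family, had r = 0.87 with Elf5 and 0.92 with Ehf, the stem cell factor receptor gene Kit 0.79 and 0.83, and the tight junction gene Cldn3 0.89 and 0.93. Wfdc18 was at 9.37, 7.26 and 6.30 CPM in the 3 tumors where Elf5 and Ehf were lowest (TGFbi+RT+anti-PD-L1 replicate 3, TGFbi replicate 2 and Sham replicate 2), against 20.5 to 146 CPM in the others. The luminal keratin Krt8 was at 0.93, 1.36 and 0.33 CPM in those 3 tumors, against 1.73 to 33.9 CPM in the others. These 3 tumors were chosen after the values were seen. Of the 22 alveolar genes, 9 did not pass the filter on low counts, the casein gene Csn2 being at 0 to 0.61 CPM in 14 tumors and at 10.2 CPM in TGFbi+RT replicate 3.

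No alveolar or pan-epithelial gene was called in any contrast. The median log2 fold change of the 13 tested alveolar genes was 0.70 in TGFbi+RT+anti-PD-L1 vs Sham, 0.24 in TGFbi+RT vs Sham, 0.34 in RT vs Sham and -0.33 in TGFbi vs Sham. In each of these contrasts 0 or 1 of the 13 had an unadjusted p under 0.05. Ehf and Trp63 ran in opposite directions, with r = -0.605 and rho = -0.636, and a permutation p of 0.016 and 0.013 that became 0.096 and 0.0936 over the 36 pairs. That r was -0.511 without the 2 tumors that stand apart, -0.695 without the 2 tumors farthest from the median of Ehf, and -0.762 within code A2301.

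Gata3, the zinc finger factor of luminal cells, had no counts in 1 tumor. It had 27.1, 22.1 and 10.1 CPM in the TGFbi+RT+anti-PD-L1 tumors, 13.6, 14.9 and 17.4 in the TGFbi+RT tumors, 18.6, 21.8 and 29.1 in the RT tumors, 23.6, 0 and 4.93 in the TGFbi tumors and 22.8, 17.2 and 26.5 in the Sham tumors. TGFbi replicate 2 had 0 counts, which allows up to 0.239 CPM at 3 counts, and TGFbi replicate 3 had 61 counts, while the other tumors had 10.1 to 29.1 CPM. The adjusted p of any difference among groups was 0.871 (edgeR), and the groups TGFbi and Sham overlapped through TGFbi replicate 1. The SD of its log2 CPM over the 15 tumors was above that of 98.9% of the genes tested.

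Of the 8 tested genes within 1 Mb of Gata3, the 2 nearest, both noncoding in RefSeq, were also at 0 counts in TGFbi replicate 2, and the other 6 were not. Gata3 lies at chr2:9857078-9878600 on the minus strand of GRCm38. The long noncoding gene 4930412O13Rik, 2646 bases away, was at 0 CPM in TGFbi replicate 2 and 0.40 CPM in TGFbi replicate 3, against 4.04 CPM in TGFbi replicate 1. Its neighbour 9230102O04Rik, 4441 bases away, was at 0, 0.16 and 0.53 CPM in the same 3 tumors. This gene was low throughout, at 0.34 to 1.33 CPM in the tumors of the other groups, and 0 counts in TGFbi replicate 2 allow up to 0.239 CPM at 3 counts. The 2 noncoding genes overlap each other and the strand setting of the counting is not given, so their counts may be shared. Taf3, 35952 bases from Gata3, was at 37.0 CPM in TGFbi replicate 2 and 41.3 in TGFbi replicate 3, against 37.1 in TGFbi replicate 1, and Kin, at 202012 bases, was at 9.33, 8.48 and 9.23 CPM in the same order. Further away, Sfmbt2, at 491851 bases, was at 12.1 and 3.88 CPM in TGFbi replicates 2 and 3, against 36.7 CPM in TGFbi replicate 1. It was at 7.08 to 32.0 CPM in the tumors of the other groups, a range that holds TGFbi replicate 2, and its r with Gata3 was 0.23. These neighbours were looked at after the values of Gata3 were seen. The genes most like Gata3 over the 15 tumors, 4930412O13Rik (r = 0.907), Cmtm8 (0.895) and Nkd1 (0.867), had r of 0.447, 0.404 and 0.241 without the 2 tumors farthest from the median of Gata3.

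**Figure D4:**
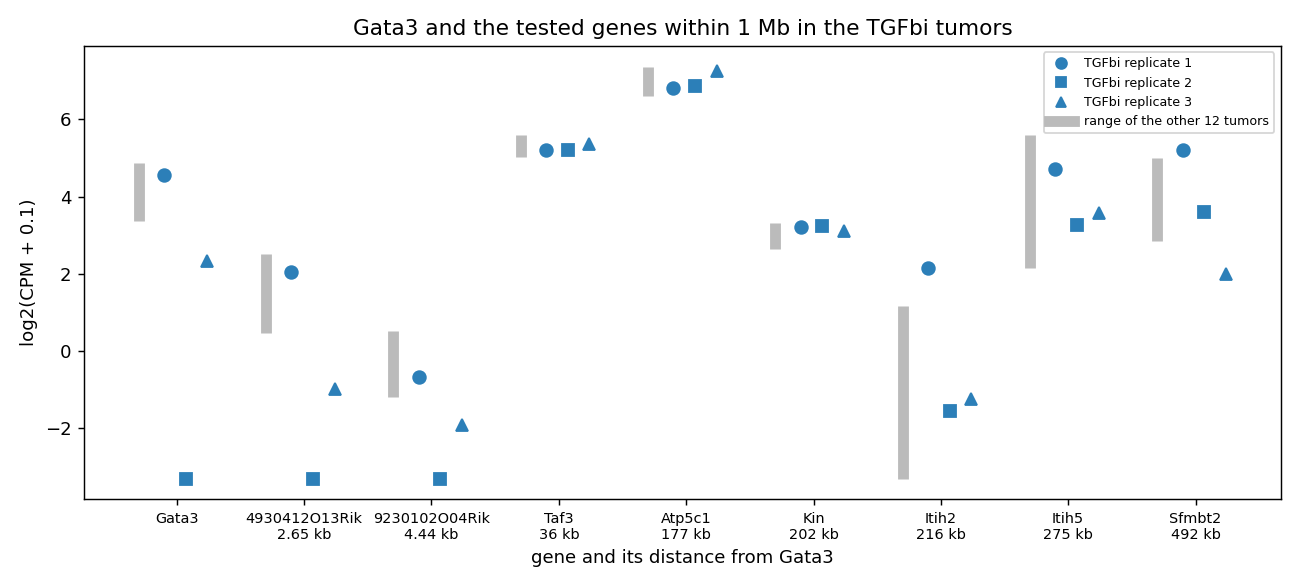
Level in log2(CPM + 0.1) (y axis) of Gata3 and the 8 tested genes within 1 Mb of it, ordered by their distance from Gata3 in kb (x axis), in the 3 TGFbi tumors (points) beside the range of the other 12 tumors (gray bars). Gata3 and its 2 nearest noncoding genes are at 0 in TGFbi replicate 2, while Taf3 at 37.0 CPM lies within the range of the other tumors.

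Among the steroid hormone receptor genes and their pioneer factor, Esr1 was expressed in every tumor. It had 11.9, 18.2 and 20.4 CPM in the TGFbi+RT+anti-PD-L1 tumors, 13.0, 9.91 and 18.6 in the TGFbi+RT tumors, 11.6, 10.8 and 6.82 in the RT tumors, 21.9, 9.09 and 6.71 in the TGFbi tumors and 20.0, 9.99 and 15.6 in the Sham tumors. The groups overlapped in every contrast, and the adjusted p of any difference was 0.777 (edgeR). Markers of host cells moved with it: 6 of 10 fibroblast and 7 of 8 endothelial markers had r above 0.5 with Esr1, where 11.1% of all genes did, and over the 13 tumors without the 2 that stand apart 0 of 10 and 4 of 8 did. Its most alike genes were St3gal6 (r = 0.905), a sialyltransferase, Cast (0.849), the calpain inhibitor, and Plekha2 (0.845).

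Foxa1 and Pgr were close to or at 0 in many tumors and higher in a few. Foxa1 had 5.60, 4.36 and 0.17 CPM in the TGFbi+RT+anti-PD-L1 tumors, 3.20, 0.71 and 15.9 in the TGFbi+RT tumors, 0.31, 0.27 and 0.49 in the RT tumors, 12.8, 0.24 and 0 in the TGFbi tumors and 0 in each of the 3 Sham tumors. Pgr, which estrogen receptor induces in the mammary gland, had 8.47, 8.44 and 3.80 CPM in the TGFbi+RT+anti-PD-L1 tumors, 3.27, 1.26 and 11.8 in the TGFbi+RT tumors, 1.87, 0.61 and 1.90 in the RT tumors, 8.35, 0.16 and 0.24 in the TGFbi tumors and 0.36, 0.33 and 0.32 in the Sham tumors. For both genes all tumors of the TGFbi+RT+anti-PD-L1, TGFbi+RT and RT groups lay above all Sham tumors, while the TGFbi tumors overlapped the Sham tumors. For Foxa1 this rests in part on very few counts, 2 in TGFbi+RT+anti-PD-L1 replicate 3 and 5, 4 and 7 in the RT tumors. At 3 counts, single Sham tumors allow up to 0.179, 0.246 and 0.195 CPM, above the 0.17 CPM of that replicate. The Sham tumors together had 0 counts of Foxa1, which allows 0.0676 CPM over the group at 3 counts. Against this limit the group mean of Foxa1 was at least 50.0-fold higher in TGFbi+RT+anti-PD-L1 tumors, at least 97.9-fold higher in TGFbi+RT tumors, at least 5.30-fold higher in RT tumors and at least 64.1-fold higher in TGFbi tumors. Single tumors carry some of these values: TGFbi replicate 1 holds 145 of the 148 counts of its group, and TGFbi+RT replicate 3 holds 187 of 239. Without the 2 tumors that stand apart, the mean of Foxa1 was 2.89 CPM in TGFbi+RT+anti-PD-L1 tumors and 1.95 CPM in TGFbi+RT tumors (n = 2 each), at least 42.7-fold and at least 28.9-fold above the Sham limit.

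Neither gene passed the test after adjustment. For Foxa1 against Sham, edgeR gave an adjusted p = 0.239 in TGFbi+RT+anti-PD-L1, adjusted p = 0.211 in TGFbi+RT and adjusted p = 0.447 in TGFbi, each below 0.05 before adjustment. In TGFbi+RT vs RT the log2 fold change was 4.17 ± 1.85 (edgeR adjusted p = 0.505), or 2.43 without the 2 tumors that stand apart. The log2 fold change of Pgr against Sham was 4.32 ± 1.30 in TGFbi+RT+anti-PD-L1 (edgeR adjusted p = 0.204), 3.97 ± 1.29 in TGFbi+RT (edgeR adjusted p = 0.213) and 3.07 ± 1.28 in TGFbi (edgeR adjusted p = 0.533), each below 0.05 before adjustment. Without the 2 tumors that stand apart the first 2 values were 4.13 and 2.70, and without TGFbi replicate 1 the TGFbi value turned to -0.72. DESeq2, run as an alternative, called Foxa1 in all 3 of these contrasts with Sham and Pgr in TGFbi+RT+anti-PD-L1 and TGFbi+RT.

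The log2 CPM of Foxa1 and Pgr had r = 0.891 and rho = 0.843 over the 15 tumors (permutation p = 3e-05 and 0.00022, or 0.00054 and 0.00396 over the 36 pairs). That r was 0.847 without the 2 tumors farthest from the median of Foxa1, 0.848 without the 2 tumors that stand apart, 0.905 for deviations from the group means and 0.967 within the 10 tumors of code A2301. Pgr also ran against Sox10, with r = -0.719 and rho = -0.711 (permutation p = 0.0025 and 0.0039, or 0.03 and 0.0468 over the 36 pairs). This r was -0.663 without the 2 tumors farthest from the median of Pgr and -0.580 without the 2 tumors that stand apart. It was -0.473 for deviations from the group means and -0.753 within code A2301. The permutations did not keep tumors within their treatment groups. The other 33 pairs of members had an adjusted permutation p of r above 0.05.

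Genes most like Foxa1 were Tlcd4 (r = 0.961), Prlr (0.955), the prolactin receptor, and Krt19 (0.922), a luminal keratin. The genes most like Pgr were Krt19 (0.897), Gpd1 (0.877), a glycerol phosphate dehydrogenase, and Lipe (0.872), the hormone-sensitive lipase of fat cells. Prlr had 40.7, 51.8 and 1.18 CPM in the TGFbi+RT+anti-PD-L1 tumors, 22.1, 10.7 and 114 in the TGFbi+RT tumors, 6.61, 5.50 and 10.8 in the RT tumors, 62.7, 2.07 and 2.99 in the TGFbi tumors and 2.39, 1.06 and 0.97 in the Sham tumors. Its 5 highest tumors are the 5 highest of Foxa1. Of 19 tested hormone-sensing luminal genes, 7 had r above 0.5 with Foxa1 and 8 with Pgr, where 11.0% and 15.7% of all genes did. Of 13 tested alveolar and luminal progenitor genes, a list that holds Prlr, 4 did with Foxa1 and 6 with Pgr. Over the 13 tumors without the 2 that stand apart, 6 and 9 of the hormone-sensing genes did. So did 2 and 5 of the alveolar genes, where 5.79% and 7.61% of all genes did. Among the hormone-sensing genes, Areg, the epidermal growth factor receptor ligand downstream of estrogen receptor, had r = 0.87 with Foxa1 and 0.77 with Pgr. Cited1, a transcriptional cofactor, had 0.76 and 0.65.

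Adipocyte markers were high in the same tumors. All 8 had r above 0.5 with Foxa1 and with Pgr over the 15 tumors, and 6 of 8 had so over the 13 tumors without the 2 that stand apart, where 5.79% and 7.61% of all genes did. Their summed level was 142, 179 and 88.7 CPM in the TGFbi+RT+anti-PD-L1 tumors, 54.7, 36.3 and 271 in the TGFbi+RT tumors, 92.6, 21.0 and 5.69 in the RT tumors, 263, 47.0 and 30.1 in the TGFbi tumors and 73.3, 6.22 and 8.82 in the Sham tumors. Adiponectin (Adipoq) was at 0 in all 3 Sham tumors, and 2 to 6 of the 8 markers were at 0 in a Sham tumor, against none in a TGFbi+RT+anti-PD-L1 or TGFbi+RT tumor. Leukocyte markers also moved with these genes: 8 of 16 had r above 0.5 with Foxa1 and 14 of 16 with Pgr, and 4 and 6 did over the 13 tumors. The part of these cell types in the levels of Foxa1 and Pgr was not tested.

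**Figure D5:**
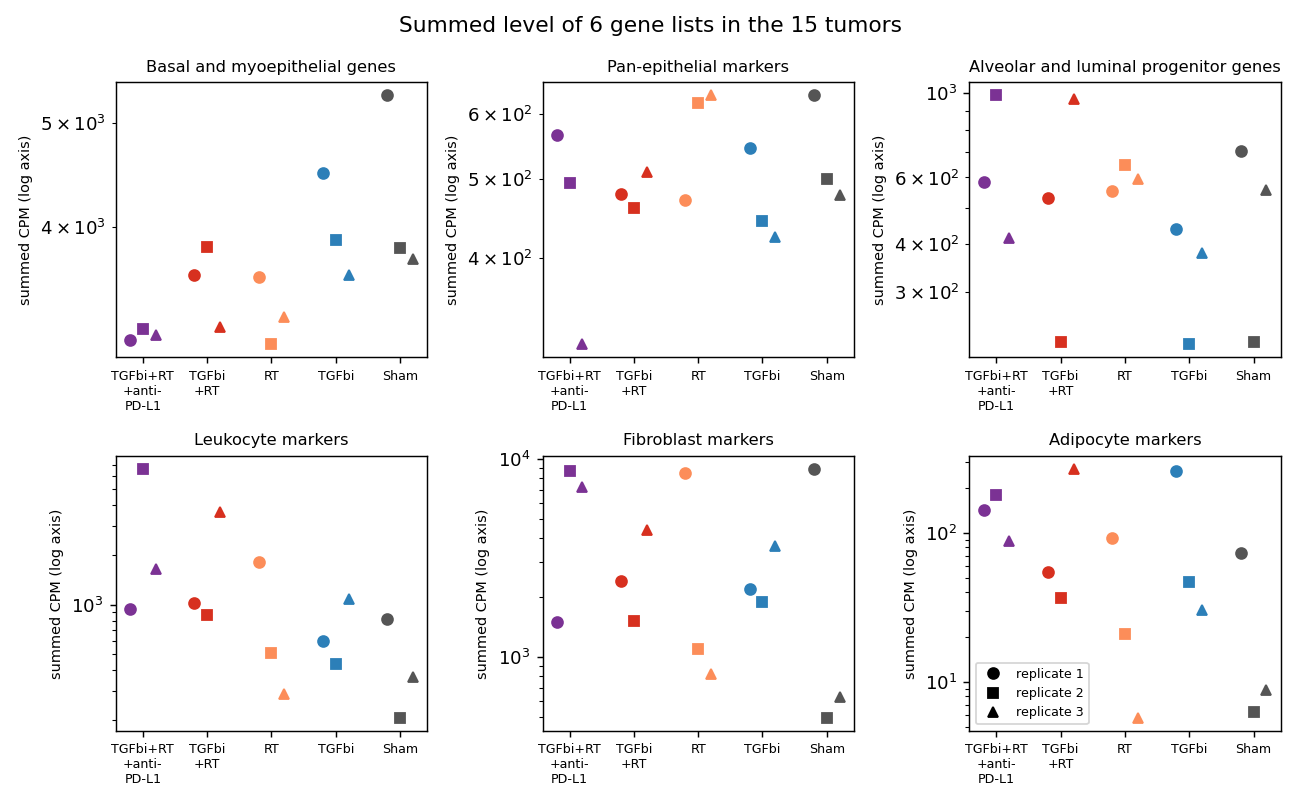
Summed CPM (y axis, log scale) of 6 gene lists in the 15 tumors by treatment group (x axis), with 1 point per tumor and the marker shape for the replicate number. Basal genes stay within 3111 to 5316 CPM, while adipocyte markers range over 5.69 to 271 CPM and leukocyte markers over 206 to 6638 CPM.

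Other genes of the lineage network were counted in the same way. Of 38 other epithelial and mammary transcription factors, all tested, 0 were called in any contrast, and 14 in TGFbi+RT+anti-PD-L1 vs Sham (7 up, 7 down, against 14.9% of all genes), 9 in TGFbi+RT vs Sham (15%), 5 in RT vs Sham (4.2%) and 5 in TGFbi vs Sham (8.48%) had an unadjusted p under 0.05. Tbx3, a T-box factor of mammary bud formation, averaged 38.7 ± 9.50 CPM in TGFbi+RT+anti-PD-L1 tumors, 32.3 ± 6.58 in TGFbi+RT tumors, 43.3 ± 5.84 in RT tumors, 31.0 ± 5.39 in TGFbi tumors and 63.9 ± 26.7 in Sham tumors (SD, n = 3 each; edgeR adjusted p of any difference 0.343). Hey1, a Notch target, averaged 12.8 ± 4.27 CPM in TGFbi+RT+anti-PD-L1 tumors, 12.4 ± 3.01 in TGFbi+RT tumors, 16.1 ± 1.83 in RT tumors, 9.72 ± 1.41 in TGFbi tumors and 22.5 ± 7.36 in Sham tumors (SD, n = 3 each; edgeR adjusted p of any difference 0.338). Snai2, the Slug factor of basal cells, averaged 132 ± 39.3 CPM in TGFbi+RT+anti-PD-L1 tumors, 144 ± 42.2 in TGFbi+RT tumors, 157 ± 7.27 in RT tumors, 201 ± 30.6 in TGFbi tumors and 224 ± 27.3 in Sham tumors (SD, n = 3 each; edgeR adjusted p of any difference 0.396). Of the list, Nfib (143 FPKM), Id4 (87.2 FPKM) and Snai2 (85.2 FPKM) had the highest mean level. Of 19 paralogs of the members, 13 were tested, 0 were called and 0 had an unadjusted p under 0.05 in the test of any difference. Of the 19 tested hormone-sensing genes, 0 were called, and 7 had an unadjusted p under 0.05 in that test, where 10.8% of all genes did, led by Ly6a (edgeR adjusted p = 0.306), which encodes the Sca-1 surface antigen and averaged 92.7 ± 99.6 CPM in TGFbi+RT+anti-PD-L1 tumors, 76.7 ± 85.0 in TGFbi+RT tumors, 7.56 ± 9.13 in RT tumors, 9.77 ± 4.66 in TGFbi tumors and 7.74 ± 6.14 in Sham tumors (SD, n = 3 each). Its highest tumors, at 206 CPM in TGFbi+RT+anti-PD-L1 replicate 2 and 175 CPM in TGFbi+RT replicate 3, are the 2 that stand apart and that hold the highest leukocyte markers, and without them the mean of Ly6a was 36.2 CPM in TGFbi+RT+anti-PD-L1 tumors and 27.7 CPM in TGFbi+RT tumors (n = 2 each). The part of leukocytes in the level of Ly6a was not tested.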

How the data were processed

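RNA from 15 tumors and 1 internal reference library was sequenced after ribosomal RNA depletion (NEBNext Ultra II libraries, per the labels' protocols). The authors deposited a table of raw counts per Entrez gene, with no normalization, and a table of other gene values, of which the coordinates and summed exon lengths were used. The genome build is GRCm38, per the submitters' processing notes. The deposited column names mention Subread, and its settings, the strand setting and the annotation release are not given in the sources used here. RefSeq symbols (GRCm38.p6) matched 25275 of 27179 genes. No listed gene overlaps a member.

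Counts were analysed in R 4.3.3 with edgeR 4.0.16: the default low-count filter on 5 groups (16017 genes kept), TMM factors of 0.919 to 1.05, quasi-likelihood fits on all 15 tumors (10 residual degrees of freedom, common biological coefficient of variation 0.364) and Benjamini-Hochberg adjustment over all genes. The fit was tested on simulated data. Limits for 0 counts use 3 counts, and cover counting error only. The prior count behind log2 CPM in correlations was 2, and plots of low genes add 0.1 CPM. Alternatives were RLE factors, no filter, DESeq2 1.42.0, limma 3.58.1 (voom), only the groups of a contrast, a replicate block, the library code, 1 code only, omission of resubmitted libraries and omission of each tumor. The deposited column names mark TGFbi+RT replicate 3 and TGFbi replicate 3 as the resubmitted libraries. Omission of the 2 tumors that stand apart was chosen after seeing the data. Python 3.11.15 with scipy 1.17.1 gave the permutation tests.

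Members' fold changes are printed where the unadjusted p is under 0.05 or is the smallest of the 9 in a contrast. From each other list, genes were named from the 3 with the smallest p of any difference and the 3 with the highest mean FPKM, and examples of correlated list genes were chosen after their values were seen. The members and lists were chosen with earlier results of these data known. Replicate pairs differed beyond sampling noise. Replicate numbers were checked for pairing by the correlation of same-numbered deviations from group means, which was -0.579 to 0.671. It was above 0.1 for all 3 pairs in RT vs Sham alone (0.671, 0.339 and 0.271). The labels state no pairing, and the main fit used none. A replicate block was run as an alternative.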

Additional observations from a re-analysis of the deposited data

Results flagged for a closer look

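The internal reference library, which the labels title an internal reference control and place in no treatment group, had 4 of the 9 factors above the level of the Sham tumors. On the scale of CPM of total counts, Gata3 was 84.0 in the internal reference against 15.8 to 26.7 in the Sham tumors, Foxa1 was 1.11 against 0, Esr1 was 23.5 against 9.17 to 19.6, and Sox9 was 105 against 40.0 to 91.8. Sox10 had 0 counts there, which allows up to 0.333 CPM at 3 counts, against 314 to 350 CPM in the Sham tumors. Elf5 and Ehf had 2 counts each and Pgr had 1 count, and Trp63 was 23.1 CPM against 536 to 921 CPM in the Sham tumors. The total of this library was 9003730 counts, and it is 1 library with no replicate.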

How the results depend on the processing

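Of 219 counts of members called under the alternatives, 215 equalled the 0 of the edgeR fit. The exceptions are all from DESeq2, which called 1 member in TGFbi vs Sham (Foxa1), 2 in TGFbi+RT vs Sham and 2 in TGFbi+RT+anti-PD-L1 vs Sham (Foxa1 and Pgr), and 1 in the test of any difference (Foxa1); the cause was not tested. In those contrasts the DESeq2 adjusted p of Foxa1 was 0.00473 in TGFbi+RT+anti-PD-L1, 0.00171 in TGFbi+RT and 0.00924 in TGFbi, the lowest of ranges that reached 1.00, 0.655 and 0.814 over the alternatives. That of Pgr was 0.00912 and 0.0251 in the first 2, of ranges that reached 1.00 and 0.670. Of 573 fold changes and adjusted p under an alternative, 566 kept their direction and side of the threshold and 1 reversed, Pgr in TGFbi vs Sham, at -0.72 without TGFbi replicate 1 (range over omitted tumors -0.72 to 3.63). Leaving out 1 tumor left 0 members called in every contrast.

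The order of the 9 levels had 3 of 9 ranks in place by CPM without length and 7 of 9 without the 2 tumors that stand apart. Genes called in DESeq2 numbered 116 in TGFbi vs Sham, 1 in RT vs Sham, 481 in TGFbi+RT vs Sham, 619 in TGFbi+RT+anti-PD-L1 vs Sham, 63 in TGFbi+RT vs RT, 3 in TGFbi+RT vs TGFbi, 1 in TGFbi+RT+anti-PD-L1 vs TGFbi+RT, 3 in the interaction and 656 in the test of any difference, against 1 in TGFbi vs Sham and 0 elsewhere in edgeR. With 1 tumor left out, edgeR called 0 to 5 genes in TGFbi vs Sham, 0 to 4 in TGFbi+RT+anti-PD-L1 vs Sham, 0 to 1 in RT vs Sham and 0 to 1 in the test of any difference.

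With the replicate block, the pairing that the numbers would give changed no call of a member: 0 were called in each contrast it could be fitted to, and the log2 fold change of Elf5 in RT vs Sham was 1.30 (adjusted p = 1.00), against 1.19 without the block. By correlation, 6 of 15 tumors were most like a tumor of their own number. Depth limits the low values of Foxa1, Gata3 and Pgr, whose lowest tumors had 0, 0 and 2 counts.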
